A study of Drosophila melanogaster with 2 samples.

Results

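The ecdysone early regulators Eip74EF, br and Eip93F and the receptor coactivator tai were examined for binding of Rel, the NF-κB factor of the Imd immune pathway. These 4 genes were taken by symbol, out of 13945 protein-coding genes. The libraries were 2 biological replicates, numbered 2 and 3, of a single group: whole wandering larvae of the third instar, males and females pooled, of a stable transgenic line whose Rel protein ends in a C-terminal GFP. ChIP-seq with an anti-GFP antibody is meant to recover DNA held by the tagged protein. No untagged line, second stage, infection or hormone treatment was analysed, so there is no comparison between conditions. Without an untagged line, DNA recovered for other reasons cannot be told apart from DNA held by tagged Rel. The larvae hold all tissues at once, and binding in few cells cannot be told apart from weak binding in many.

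The steroid hormone ecdysone triggers the moults and metamorphosis of insects. It binds a receptor made of EcR and usp, which switches on a small set of early genes whose products are themselves regulators, and these pass the signal to many later targets. Eip74EF encodes an ETS-domain transcription factor and br (broad) a family of zinc finger proteins with a shared BTB domain. Both are classic early genes, known from the puffs that the hormone raises on salivary gland chromosomes. Eip93F encodes a DNA-binding protein known for its role in the death of larval tissues and in adult fates later in metamorphosis. The product of tai is a coactivator that binds the hormone receptor.

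The authors' list of peaks kept after the irreproducible discovery rate (IDR) procedure, called the IDR list here, holds 2133 peaks. Each IDR summit was counted for a gene if it fell within the annotated gene or in the 1000 bp before its start. The rank of a peak is its place by the authors' signal value, with 1 as the strongest, in the relaxed lists of 30000 regions that the authors made for the pooled reads and for each replicate. The IDR list equals the 2133 strongest regions of the pooled list, so a rank up to 2133 is the natural mark to hold replicate ranks against. A replicate region was taken as the same peak if its summit lay within 200 bp. Where several did, the strongest of them was used, not the nearest. The signal value is the peak caller's own, and ran from 72.5 to 674 in the IDR list. All positions are on dm6.

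IDR peaks of tagged Rel lay at 3 of the 4 genes, and Eip93F held none. Eip74EF held 9 IDR summits, tai held 9 and br held 5, which makes 23 in all, or 1.08% of the list. Among all protein-coding genes 10.6% held a summit (1485 of 13945). The 4 genes are long, between 60.7 and 89.7 kb, and long genes collect more summits. Among the 224 genes of 50 to 100 kb, 44.2% held at least 1 summit, 8.04% held 5 or more and 2.68% held 9 or more. Among all genes 0.344% held 5 or more. Only 6 genes in the genome held more summits than Eip74EF and tai, a number that Tlk and kirre also had. Per 10 kb of gene with its upstream stretch, Eip74EF had 1.46 summits, tai 1.07, br 0.551 and Eip93F 0, while the genes of 50 to 100 kb had 0.191 over their summed length. No test was made of these counts, since the 4 genes were proposed with earlier results of these data known.

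**Figure D1:**
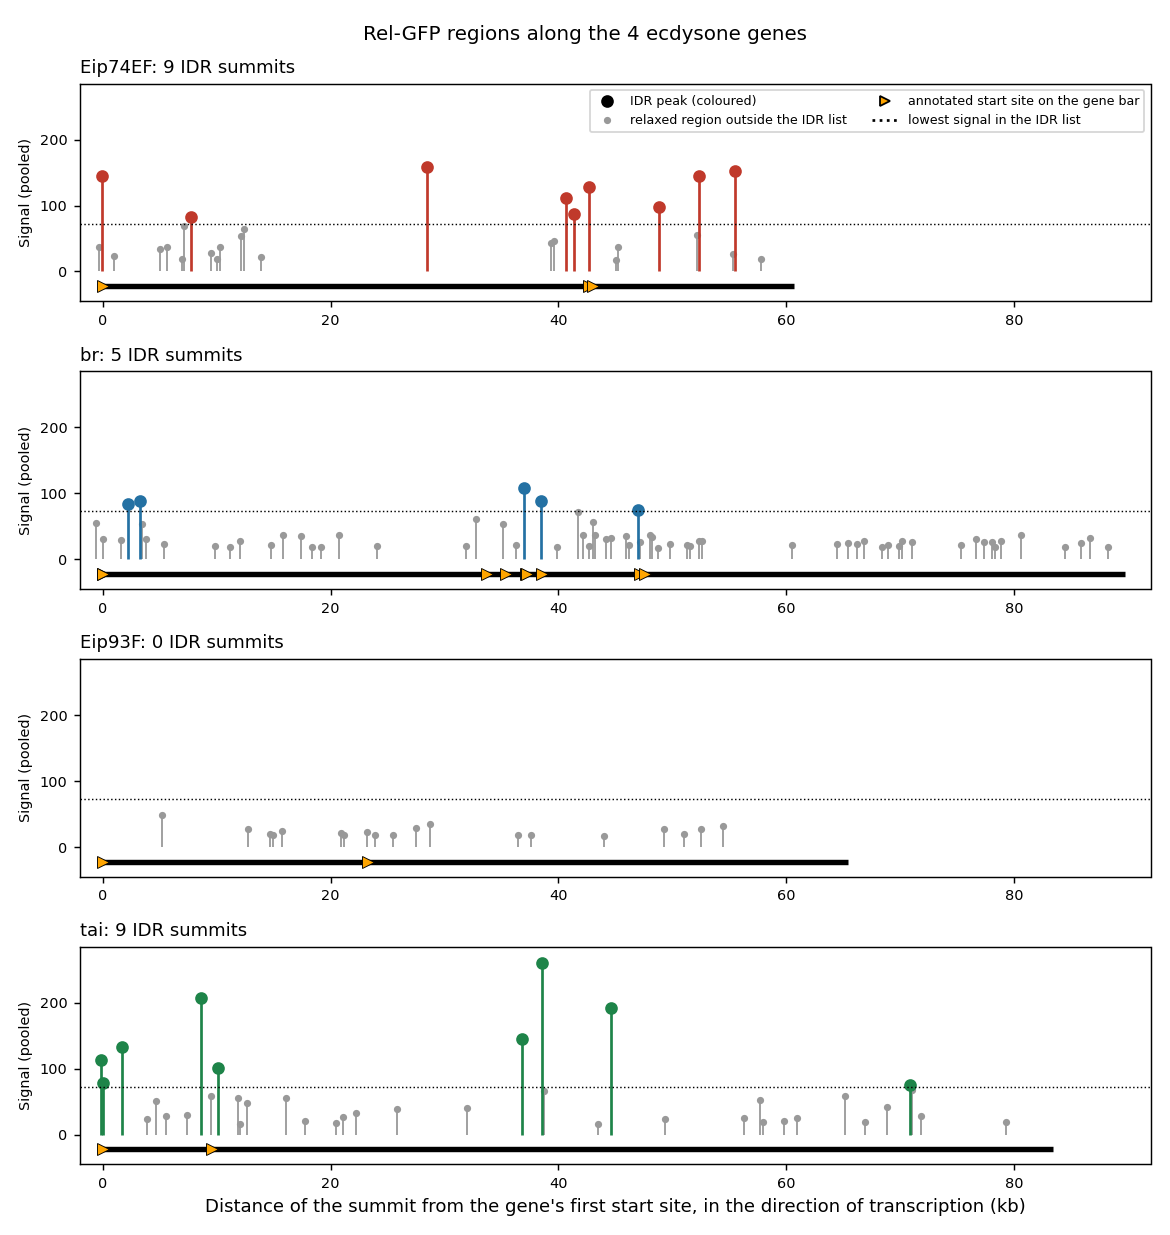
Signal of every region of the pooled relaxed list along the 4 genes, against the distance of its summit from the gene's first start site in kb, in the direction of transcription. Coloured points are IDR peaks (9 in Eip74EF, 5 in br, 0 in Eip93F and 9 in tai), grey points are relaxed regions outside the IDR list, triangles on the black gene bars are annotated start sites, and the dotted line is the lowest signal in the IDR list, 72.5.

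**Figure D2:**
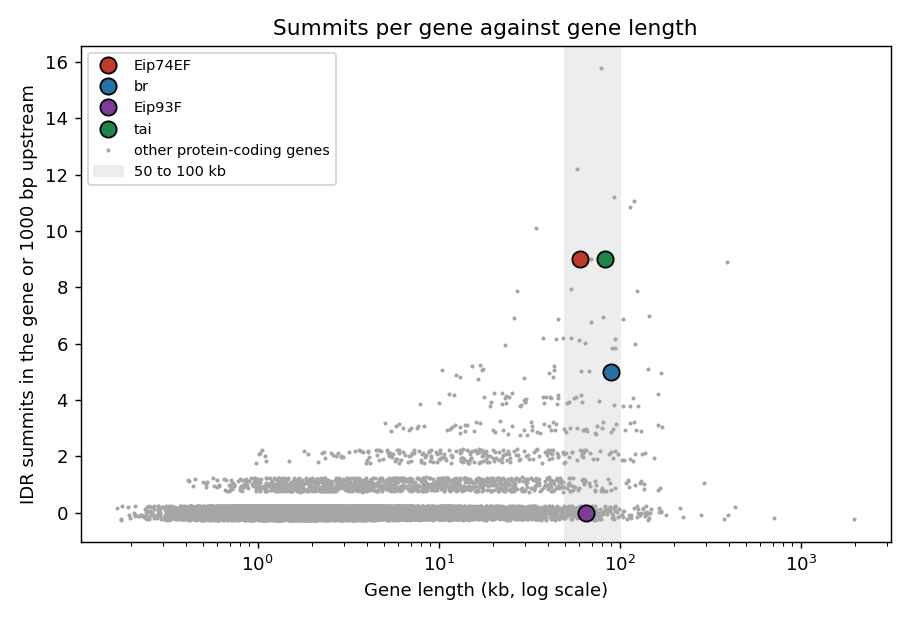
Number of IDR summits in each gene or 1000 bp upstream against gene length in kb (log scale). Large points are the 4 ecdysone genes and small grey points, spread slightly up and down to show overlap, are the other protein-coding genes; Eip74EF and tai sit at 9 summits and br at 5, above most genes of the shaded 50 to 100 kb range, and Eip93F sits at 0.

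Eip74EF (FBgn0000567, chr3L:17558672-17619325, minus strand) carried peaks at both of its promoters. The gene has a distal start site, at 17619325, used by transcripts RA, RC and RE, and a proximal pair of sites 42699 and 43005 bp further on, at 17576626 for RB and 17576320 for RD. The long and short transcripts give proteins with the same ETS domain and different N-terminal parts. At the distal promoter the summit lay 111 bp upstream of the start (chr3L:17619238-17619633), with pooled rank 411 and signal 146. This peak ranked 342 in replicate 2 and 796 in replicate 3. At the proximal promoter the summit lay 32 bp upstream of the RB start and 338 bp upstream of the RD start (chr3L:17576460-17576855), with pooled rank 583 and signal 128. Its rank was 362 in replicate 2 and 1477 in replicate 3, where the summit was displaced by 101 bp. Both replicates thus placed both promoters of Eip74EF among their strongest 2133 regions.

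Of the other Eip74EF summits, 4 lay between the distal and the proximal promoter and 3 lay downstream of the proximal pair. All 7 were in introns. The strongest peak of the gene was in the long upstream intron (chr3L:17590662-17591057), 28465 bp downstream of the distal start and 14234 bp upstream of the RB start. It had pooled rank 316 and signal 158, with rank 175 in replicate 2 and 1288 in replicate 3. A pair of weaker peaks stood 2019 and 1291 bp upstream of the RB start, at pooled ranks 819 and 1444, and both were in the top 2133 of each replicate (ranks 903 and 2091 in replicate 2, 1162 and 1602 in replicate 3). The remaining upstream peak, 7735 bp into the gene, ranked 1642 in the pooled list, 1546 in replicate 2 and 2638 in replicate 3, and was the only one of the 9 outside the top 2133 of a replicate.

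Downstream of the proximal pair, the peaks lay 5834, 9333 and 12540 bp from the RD start, at pooled ranks 1104, 423 and 359. The last of these ranked 219 in replicate 2 and 423 in replicate 3. The middle one ranked 1100 in replicate 2 and 337 in replicate 3, and the first ranked 2111 in replicate 2 and 971 in replicate 3. For the first, the region of replicate 2 had its summit 198 bp away, at the limit of what was counted as the same peak. The order of strength within the gene therefore differed between the replicates, with the intron peak at 28465 bp leading in replicate 2 and the peak at 9333 bp leading in replicate 3.

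The sequences at both Eip74EF promoters and at the strongest intron peak are shown because they share the string GAGAG, read on one strand or the other. They are written on the gene's strand, from 5′ to 3′, from 100 bp before the summit to 100 bp after it, and the proximal one ends at the RB start to leave out the exon. Capitals mark GAGAG and CACACA on either strand, so that CTCTC and TGTGTG are also in capitals. The regions are chr3L:17619336-17619536, chr3L:17576627-17576758 and chr3L:17590760-17590960.
Eip74EF distal promoter: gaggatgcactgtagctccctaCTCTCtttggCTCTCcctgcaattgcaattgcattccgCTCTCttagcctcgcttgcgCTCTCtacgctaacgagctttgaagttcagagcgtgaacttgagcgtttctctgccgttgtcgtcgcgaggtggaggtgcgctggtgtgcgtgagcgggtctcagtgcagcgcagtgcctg
Eip74EF proximal promoter: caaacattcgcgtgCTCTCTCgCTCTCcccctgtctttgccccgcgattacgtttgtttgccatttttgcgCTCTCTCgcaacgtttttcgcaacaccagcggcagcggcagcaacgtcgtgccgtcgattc
Eip74EF intron: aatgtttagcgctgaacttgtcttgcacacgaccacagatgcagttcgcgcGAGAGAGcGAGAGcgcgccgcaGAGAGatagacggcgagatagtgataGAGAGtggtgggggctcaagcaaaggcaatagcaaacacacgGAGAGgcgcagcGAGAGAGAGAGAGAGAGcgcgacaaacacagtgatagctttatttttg

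At the distal promoter the string stood at 4 places, all upstream of the summit, and at the proximal promoter at 5 places, all upstream too. The intron window held it at 13 places, most of them overlapping in a run downstream of the summit. GAGAG is the core string of GAGA factor, a protein that keeps promoters open in flies. It occurred in 6 of the 9 Eip74EF windows of 201 bp, against 37.3% of all IDR windows. The intron peak at 12540 bp from RD also held it at 13 places. The peaks at ranks 1642 and 423 held neither GAGAG nor CACACA.

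In br (FBgn0283451, chrX:1575132-1664869, plus strand) the peaks were weaker, and 3 of 5 lay just upstream of an internal start site. The gene has 16 transcripts from 9 start sites, and its BTB domain is joined by splicing to different zinc fingers. The best peak (chrX:1611877-1612272) had pooled rank 867 and signal 108. Its summit lay 266 bp upstream of the site at 1612341, from which 8 of the 16 transcripts begin, and 233 bp upstream of that of RP at 1612308. It lay 1563 bp downstream of the RC start and 1582 bp upstream of the RI start. The replicates placed it differently, at rank 506 in replicate 2 and 3301 in replicate 3. The RI start, at 1613657, had a peak 83 bp upstream (chrX:1613376-1613771), with pooled rank 1419 and signal 87.9. This one ranked 2448 in replicate 2 and 1148 in replicate 3. Each of the 2 peaks was thus inside the top 2133 of a single replicate, and not of the same one.

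The weakest of these peaks lay 217 bp upstream of the RS start at 1622308 and 641 bp upstream of the RM start (chrX:1621893-1622288). It had pooled rank 2035, close to the end of the IDR list. In replicate 2 its rank was 991 and its signal 61.8. In replicate 3 a region with the same summit had rank 27271 and a signal of 9.52, against a lowest signal of 8.96 in that list. The peak thus rests on replicate 2. The last 2 peaks stood in the first intron of the longest transcripts, 2188 and 3215 bp downstream of the RN start at 1575132, with pooled ranks 1572 and 1402. The second of them ranked 1350 in replicate 2 and 1368 in replicate 3, and was the only br peak among the top 2133 of both. The first ranked 919 in replicate 2 and 4328 in replicate 3. At the start sites of RN and RO themselves, the strongest region had pooled rank 10288, and at that of RH none of the 3 relaxed lists held a region within 500 bp.

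Without replicate 2 the top 2133 regions placed 3 summits in br, and without replicate 3 they placed 8. All of br lies within Mur2B, a gene of 145 kb on the other strand (chrX:1523554-1668788), so each br summit is also inside Mur2B. The nearest Mur2B start sites were 3936 bp or more from these summits. How the peaks relate to br and to Mur2B was not tested.

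The sequences of the 3 promoter peaks of br are given to set their strings beside those of the Eip74EF promoters. They are chrX:1611975-1612175, chrX:1613474-1613656 (cut at the RI start) and chrX:1621991-1622191, on the plus strand and marked in the same way.
br main internal promoter: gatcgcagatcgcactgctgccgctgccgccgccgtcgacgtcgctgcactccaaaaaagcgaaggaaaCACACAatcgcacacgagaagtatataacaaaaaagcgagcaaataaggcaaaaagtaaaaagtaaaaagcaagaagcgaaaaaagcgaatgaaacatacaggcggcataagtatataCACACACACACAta
br RI promoter: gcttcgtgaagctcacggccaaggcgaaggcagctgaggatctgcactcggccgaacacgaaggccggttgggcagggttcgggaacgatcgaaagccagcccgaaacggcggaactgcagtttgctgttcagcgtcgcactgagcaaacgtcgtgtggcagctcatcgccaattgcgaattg
br RS promoter: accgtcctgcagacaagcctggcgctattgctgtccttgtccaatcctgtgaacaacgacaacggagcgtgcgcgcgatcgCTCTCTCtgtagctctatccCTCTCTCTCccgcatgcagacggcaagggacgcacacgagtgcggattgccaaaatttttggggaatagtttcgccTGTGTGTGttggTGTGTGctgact

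CACACA on either strand occurred in 4 of the 5 br windows, against 22.8% of all IDR windows. GAGAG, found in 37.3% of all IDR windows, occurred in 1 of the 5, that of the RS promoter, which held both. The window at RI held neither. At the first intron peak of br, 2188 bp from RN, the string CACACA stood at 13 overlapping places in separate runs on both sides of the summit. In Eip74EF 1 of 9 windows held CACACA.

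At tai (FBgn0041092, chr2L:9166778-9250211, plus strand) the strongest peaks of the 4 genes were found, and the leading one lay deep in an intron. The gene has 3 transcripts (RD, RG and RH) from a first start at 9166778 and 3 (RC, RE and RF) from a second at 9176358. The leading peak (chr2L:9205130-9205525) had pooled rank 59 and signal 261, 38550 bp downstream of the first start and 28970 bp downstream of the second. It ranked 68 in replicate 2 and 98 in replicate 3. Another intron peak, 44629 bp downstream of the first start (chr2L:9211209-9211604), had pooled rank 183 and signal 193, with ranks of 187 in replicate 2 and 261 in replicate 3. Another stood 36782 bp downstream, at pooled rank 417, with ranks of 564 in replicate 2 and 291 in replicate 3. Both replicates placed all 3 of these among their strongest 2133 regions.

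The start sites of tai differed in the peaks near them. At the first, summits 202 bp upstream and 2 bp downstream of the start had pooled ranks 768 and 1768 (chr2L:9166378-9166773 and chr2L:9166582-9166977). Their regions shared 192 bp. Replicate 2 held both, at ranks 1439 and 1681. Replicate 3 held a single region between them, at rank 519, which was matched to each. Whether they are separate sites cannot be told from these lists. The start of CG9586, transcribed the other way, lies 264 bp from that of tai, and the upstream summit was 62 bp from it, closer than to tai. The promoter peak could belong to either gene. A further summit lay 1692 bp downstream of the first start, at pooled rank 525, with ranks of 764 in replicate 2 and 633 in replicate 3.

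The second start of tai had no IDR summit within 500 bp, and the nearest on either side lay 952 bp upstream and 514 bp downstream. The summit 952 bp upstream of it (chr2L:9175325-9175469) was the second strongest of the gene, with pooled rank 139 and signal 207. It was 145 bp wide, where the other 22 peaks of these genes were 396 bp, and ranked 86 in replicate 2 and 355 in replicate 3. The summit 514 bp downstream had pooled rank 1037, with ranks of 568 in replicate 2 and 4028 in replicate 3. On the start itself, 130 bp upstream, a region with pooled rank 3344 missed the IDR list. The last tai peak, 70870 bp downstream of the first start, had pooled rank 1938. It ranked 391 in replicate 2, and replicate 3 held no region within 200 bp.

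The promoter and leading intron peak of tai are shown as its start site and its strongest site. They are chr2L:9166515-9166676, which is cut at the exon of CG9586, and chr2L:9205228-9205428.
tai first promoter: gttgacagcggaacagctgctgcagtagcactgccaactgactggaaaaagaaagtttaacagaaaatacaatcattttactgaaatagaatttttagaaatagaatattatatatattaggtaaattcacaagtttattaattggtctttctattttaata
tai leading intron peak: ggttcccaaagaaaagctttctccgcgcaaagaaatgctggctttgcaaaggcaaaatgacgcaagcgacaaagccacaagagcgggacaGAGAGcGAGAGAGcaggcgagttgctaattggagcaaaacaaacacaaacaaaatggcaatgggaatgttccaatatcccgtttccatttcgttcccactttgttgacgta

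The promoter window of tai, of 201 bp, held neither GAGAG nor CACACA and had a GC content of 31.8%, against 46.8% at the intron peak, where GAGAG stood at 3 places just upstream of the summit. In tai GAGAG occurred in 4 of 9 windows, against 37.3% of all IDR windows, and CACACA in 3, against 22.8%.

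Eip93F (FBgn0264490, chr3R:21949114-22014539, plus strand) held no IDR summit in 65.4 kb. The authors' relaxed lists held 19 regions there in the pooled reads, 20 in replicate 2 and 21 in replicate 3. The strongest pooled region (chr3R:21954137-21954532), 5221 bp downstream of the first start, had rank 4651, signal 48.6 and a −log10 q of 1.18, which is a q value above 0.05. It ranked 9370 in replicate 2 and 8172 in replicate 3. The best region anywhere in the gene had rank 9370 in replicate 2, that same one, and 6207 in replicate 3, at another place 54466 bp downstream. At the first start, of RB, replicate 3 held a region of rank 13631 and the other 2 lists none within 500 bp. At the second, of RA and RC, the strongest pooled region had rank 16536. None of the alternative lists or assignments that were tried placed a summit in Eip93F.

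A gene of this length without a summit is common. Of the 224 genes of 50 to 100 kb, 125 (55.8%) held none. Over those of the 125 with any pooled region, the median of the best pooled rank was 11147. For 93 of them the best pooled rank was 4651 or weaker, counting Eip93F. With genes that had no pooled region included, 96 others of the class were weaker than Eip93F. Eip93F was thus among the larger share of its length class, and Eip74EF and tai were among the few with 9 or more. In relaxed regions of the pooled list, 132 genes of the class had fewer than the 19 of Eip93F. The sequence of its strongest region, chr3R:21954235-21954435, is shown for comparison, and has no capital letters because it holds neither string.
Eip93F strongest region: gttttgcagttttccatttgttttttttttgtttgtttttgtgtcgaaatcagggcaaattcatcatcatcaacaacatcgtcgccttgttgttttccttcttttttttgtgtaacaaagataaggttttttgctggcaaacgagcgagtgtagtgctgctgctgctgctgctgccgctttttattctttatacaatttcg

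Of the 16 annotated start sites of these 4 genes, 8 had an IDR summit within 500 bp, against 6.41% of the 19252 start sites of protein-coding genes. Several of the 16 lie close together and share a summit, so the 8 rest on 7 summits, of which 2 are the overlapping pair at tai. Read from the side of the summits, 7 of 23 lay within 500 bp of a start site of their own gene, where 41.6% of all IDR summits lay within 500 bp of any protein-coding start. Of the 23, 20 were in introns, 2 upstream of the gene and 1 in a 5′ UTR exon, and 0 in coding exons. No such split of all IDR summits is given here, so these counts do not set the genes apart from others. Without replicate 2, the number near an own start was 4, since the main internal promoter and the RS promoter of br dropped out and tai kept a single summit.

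**Figure D3:**
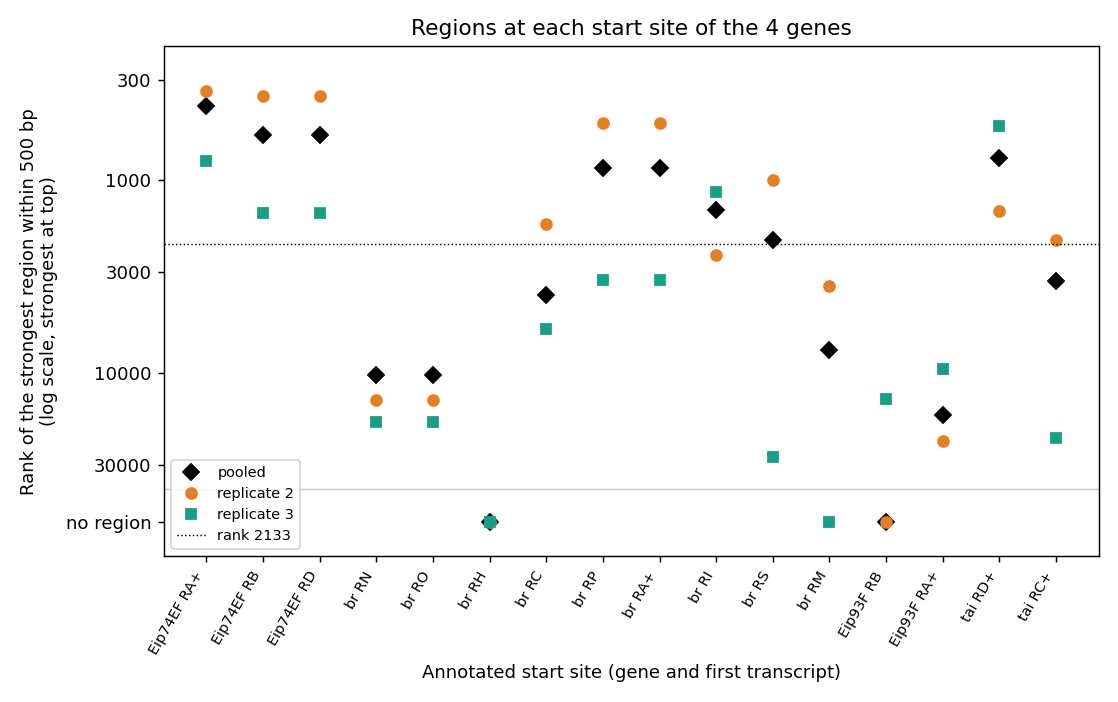
Rank of the strongest region within 500 bp of each of the 16 annotated start sites (log scale, strongest at the top), in the pooled list and in each replicate. Labels give the gene and its first transcript at that site, with a plus sign where there are more; the 3 start sites of Eip74EF lie above the dotted line at rank 2133 in all lists, those of br spread from rank 506 to no region at all, and those of Eip93F are at rank 9527 or weaker.

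Of the 23 peaks, 16 were among the top 2133 regions of both replicates, against 57.6% of all IDR peaks (1229 of 2133). They were 8 of 9 in Eip74EF, 7 of 9 in tai and 1 of 5 in br. The count in tai uses the single replicate 3 region at its first start for both peaks there. With summits matched within 100 bp, the counts were 6 in Eip74EF, 6 in tai and 1 in br, 13 in all. In replicate 2 alone 22 of the 23 reached that mark, against 1677 of all 2133 IDR peaks. In replicate 3 it was 17 of the 23, against 1604 of 2133. Of the 22 peaks found in both lists, 14 had the better rank in replicate 2, against 1046 of 2091 over all IDR peaks. The median absolute log2 ratio of the ranks was 1.17 for the peaks of these genes and 0.97 for all IDR peaks. By gene it was 1.12 in Eip74EF, 1.21 in tai and 2.24 in br, so the ranks of the replicates lay farther apart in each than over the whole list. The median distance of the replicate summit from the pooled one was 1.00 bp in replicate 2 and 14.5 bp in replicate 3, against 9.00 and 17.0 bp for all peaks.

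**Figure D4:**
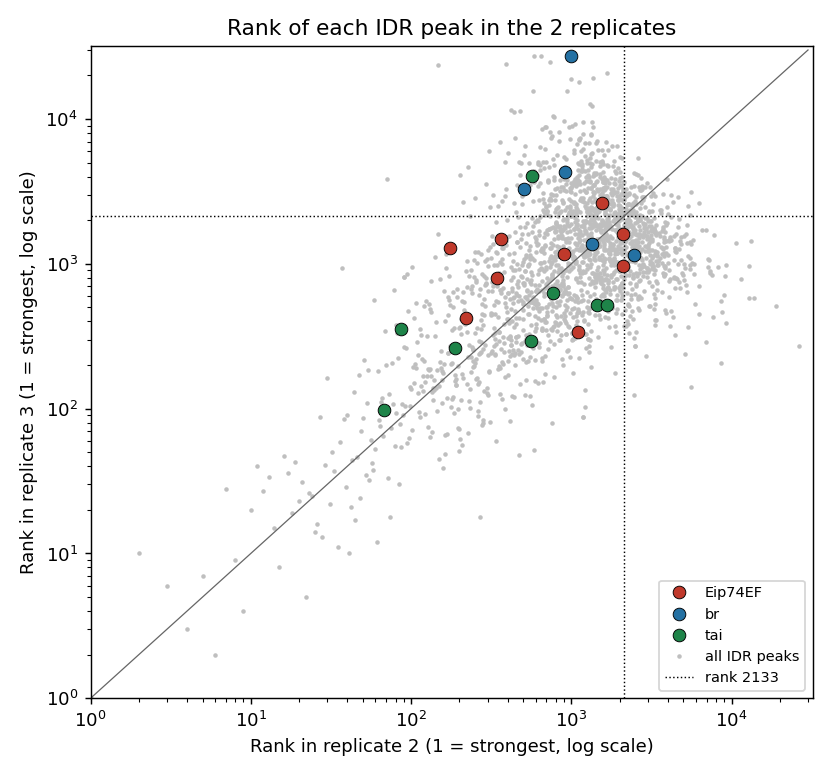
Rank of each IDR peak in replicate 2 (x axis) and replicate 3 (y axis), both on log scales with 1 as the strongest, for the peaks of Eip74EF, br and tai (large points) and for all IDR peaks (grey). The dotted lines mark rank 2133; the br peak at rank 991 in replicate 2 stands far above the others at 27271 in replicate 3, and the tai peak with no region in replicate 3 is not drawn.

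Just below the IDR list lay further regions in the 3 genes with IDR peaks. With the pooled regions that had a q value under 0.05, the counts became 13 in Eip74EF, 11 in br, 0 in Eip93F and 16 in tai. That list was itself longer, with 4236 regions against 2133 in the IDR list. The summits of these genes rose from 23 to 40 in all, and a longer list adds summits to genes in general. No share over all genes was computed at this threshold, so the added regions are not evidence of further enrichment in these genes. The strongest region outside the list was in br, 41740 bp downstream of its first start, at pooled rank 2223 and signal 71.1, with ranks of 2335 in replicate 2 and 1189 in replicate 3. In Eip74EF a region 7124 bp downstream of the distal start had pooled rank 2305, with rank 1178 in replicate 2 and no region in replicate 3. In tai, regions at pooled ranks 2477 and 2488 stood 213 and 212 bp from IDR summits. Replicate 3 held a tai region of rank 1346, 57810 bp downstream of the first start, that had no region within 200 bp in replicate 2 and pooled rank 3995.

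Apart from GAGAG and CACACA, the strings searched were uncommon in the 23 summit windows, and also in all IDR windows. GAGAG occurred in 11 of 23, against 37.3% of all IDR windows and 25.0% of windows around protein-coding start sites. CACACA occurred in 8 of 23, against 22.8% of IDR windows and 16.1% of start site windows. In all, 16 of the 23 windows (69.6%) held one or the other, against 49.4% of IDR windows and 36.5% of start site windows. The string GGGANNNCC, part of the family of sites bound by NF-κB proteins, was found in 1 window, against 2.53% of IDR windows and 3.05% of start site windows. It was the distal promoter of Eip74EF, where its letters GGCTCTCCC on the gene's strand shared 5 letters with a GAGAG match on the other strand. TCANTGA, the centre of the inverted repeat bound by the ecdysone receptor, was found in 1 window, the br intron peak of rank 1402 (IDR windows 4.45%, start site windows 4.27%). The receptor half-site AGGTCA was found in 0 (3.09% and 3.26%), but in windows of 401 bp it was found in 3 of 23, against 6.14% of IDR windows.

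The AP-1 string TGANTCA occurred in 1 window, that of Eip74EF rank 1444, against 3.94% of IDR windows and 3.79% of start site windows. CAGGTA, part of the string of the early activator Zelda, occurred in 2, against 4.83% and 4.26%. The string GATAAG, bound by a family of zinc finger factors, occurred in 0 of 23, against 10.9% of IDR windows and 12.3% of start site windows. CCGGAA, bound by ETS proteins, the class of Eip74EF itself, occurred in 0, against 2.77% and 5.83%. TATCGATA, bound by the DREF factor, occurred in 0, against 0.938% and 6.45%. The 23 windows come from 3 genes, and no test was made of these shares. The GC content of the windows ran from 26.9% to 58.2% with a median of 42.8%, against a median of 38.3% over all IDR windows.

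Other genes of the ecdysone pathway, listed by role, held summits in 17 of 34 cases, 45 summits in all. The share of all protein-coding genes is 10.6%, as given above, and the list again holds many long genes, with a median length of 16504 bp. The hormone receptor gene EcR held 7 summits (best pooled rank 131), and its importer Oatp74D held 2 (rank 797), while usp, the receptor partner, held 0. Of 7 nuclear receptor genes of the cascade 5 held a summit. These were Eip75B with 11 summits (rank 85), Eip78C with 2 (rank 72), Hr4 with 3 (rank 79), Hr39 with 2 (rank 522) and ftz-f1 with 3 (rank 1109). Of 6 other early genes 5 held a summit. They were the zinc finger gene crol with 2 summits (rank 111), the transporter gene E23 with 2 (rank 309), Eip63E with 1 (rank 758), Eip63F-1 with 1 (rank 902) and Kr-h1, a zinc finger gene of the juvenile hormone response, with 2 (rank 1320).

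Of 7 genes that make or clear the hormone, shd, whose enzyme makes the active form of the hormone, held 1 summit at rank 1600, and the other 6, among them dib, sad and Cyp18a1, held none. Their lengths ran from 2260 bp for dib to 76790 bp for nvd. Of 4 coregulator genes other than tai, the corepressor gene Smr held 3 summits (rank 360). Of 7 later targets, the cell death gene hid held 1 (rank 370), ImpL2, a secreted binder of insulin-like peptides, held 1 (rank 1066) and ImpE3 held 1 (rank 2102). With a rank of 59, tai held the best peak of the whole pathway list, ahead of Eip78C, Hr4 and Eip75B.

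By the number of summits and the best rank in the pooled list and in each replicate, the gene most like tai was Tlk, a protein kinase gene, with 9 summits and best ranks of 60 pooled, 50 in replicate 2 and 86 in replicate 3. Its mean absolute log2 ratio of rank to tai over the 3 lists was 0.22. The only other gene with 9 summits, apart from Eip74EF, was kirre, at 3.08. For Eip74EF the genes with 9 summits, apart from tai, were the same ones, with kirre at 1.22 and Tlk at 2.06. Of 17 other genes with 5 summits, E2f1, a cell cycle regulator, was nearest to br at 0.36, and NK7.1 followed at 0.58. For Eip93F, 4227 other genes with no IDR summit had regions in all 3 lists, and the nearest, yrt and cry, were at 0.05 and 0.07. Only 3 lists from 2 libraries enter this measure, and it describes strength without position.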

How the data were processed

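The authors deposited peak lists in narrowPeak format on dm6 and dm3 and, per the deposited list of files, derived the relaxed lists from the replicate alignments with 1 further file common to them, whose content is not described there, and the IDR list from the relaxed lists. Aligner, peak caller and software versions were not given in the sources used here. Regions were ordered in each list by the signal value that the authors deposited, and the −log10 q they deposited served for a threshold of 0.05. No file used holds read counts, so depth is unknown. Lists on dm3 were not used. The gene models were those of Ensembl release 115 (BDGP6.54), and bases were read from the RefSeq genome of the same assembly, dm6.

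Summits were assigned to genes, ranked and matched between lists within 200 bp, a distance chosen after seeing the data, and strings were searched on both strands in windows of 201 bp around summits and around 19252 protein-coding start sites. The design has 1 group, so no test was run, and shares over all genes, peaks or start sites are given where they were computed. The members, lists and strings were chosen with earlier results of these data known. From the pathway list every gene with a summit is named. For each member the 2 genes from outside the 4, of equal summit number and with the closest best ranks, are named. Of 34 list symbols, 4 were matched through synonyms. The replicates are called biological in the labels. The tools were numpy 2.4.6, pandas 2.3.3 and matplotlib 3.10.9, run in Python 3.11.15. Alternatives were each replicate alone, a stricter and a looser list, other gene limits, start site distances, window sizes and matching distances. Assignment, distances and string search were tested on made-up peaks.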

Additional observations from a re-analysis of the deposited data

How the results depend on the processing

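The number of the 4 genes with a summit was 3 in every alternative tried. Leaving out a replicate, with the 2133 strongest regions of the remaining one, gave from 19 to 31 summits in all, against 23, and from 4 to 8 near an own start site, against 7. The 1066 strongest peaks of the IDR list gave 14 summits in all and 4 near an own start. A q value threshold of 0.05, which 4236 regions of the pooled list passed, gave 40 summits in all. These settings change the number or the source of the regions. In br the count was 3 without replicate 2, 8 without replicate 3, 1 among the 1066 strongest peaks and 11 with the q value threshold, against 5. In tai the q value threshold gave 16 against 9. Windows with CACACA numbered 4 at 50 bp and 13 at 200 bp either side of the summit, against 8. The 4 and 13 were 17.4% and 56.5% of the 23 windows, against 11.6% and 44.2% of all IDR windows. For the other strings, window sizes were added after the data were seen. At 50 bp none was found in any of the 23 windows, and each was in 5.39% or less of all IDR windows. At 200 bp AGGTCA was found in 3, against 0, TCANTGA, GGGANNNCC and TGANTCA in 2 each, against 1, CAGGTA in 2 as before, and the other 3 in 0. The shares of TGANTCA and CAGGTA, 8.70% each, then lay below those of all IDR windows, 9.56% and 9.70%. Of 73 alternative values, 54 were within 1.5 times of those reported and 19 were not. Some of the 54 could not have moved, since a smaller list or window cannot add to a count of 0. Summit matching at 100 bp and at 396 bp, added after the data were seen, placed 13 and 16 of the 23 peaks in the top 2133 of both replicates, against 16. No paired analysis was possible because the design holds a single group and no test. Depth could not be weighed, since the lists hold no read counts.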
